A study of Mus musculus with 8 samples.

Results

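Expression of 10 chemokine and chemokine receptor genes was examined in 8 neuroblastomas of LSL-MYCN;Dbh-iCre mice. The genes were the CC ligands Ccl2, Ccl6 and Ccl8, the CXC ligands Cxcl2, Cxcl10 and Cxcl12, the CX3C ligand Cx3cl1, and the receptors Cxcr4, Ackr3 and Cx3cr1. They were chosen by name, and every probe set that the array annotation assigns to 1 of these genes alone was taken, which gave 17 probe sets for the 10 genes, of 34958 single-gene probe sets for 18194 genes. Tumors 7 and 8 were ganglion tumors, from the superior cervical ganglion at the upper end of the sympathetic chain, and Tumors 1 to 6 were adrenal tumors. Each was hybridised to 1 Affymetrix mouse whole-genome array.

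All 8 tumors carried the same alleles. LSL-MYCN is a human MYCN transgene in the ROSA26 locus behind a CAG promoter and a loxP-flanked stop cassette, followed by luciferase, and Dbh-iCre is a Cre recombinase driven by dopamine beta-hydroxylase. MYCN is thus switched on in noradrenergic cells and their descendants, whereas immune, vascular and stromal cells of the tumor are host cells without the active transgene. The tumors were untreated, and the age of the mouse is not given for each tumor. Whether each tumor came from a separate mouse is not given either, so p-values measure the spread between these tumors. Normal adrenals were not analysed here.

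Chemokines are small secreted or membrane-bound proteins that guide the migration of cells, mainly leukocytes, through G-protein-coupled receptors. Some receptors are atypical and bind their ligand to remove it from the tissue without activating G proteins. In the developing sympathetic nervous system, Cxcl12 and its receptor Cxcr4 take part in the migration of neural crest cells, and in tumors macrophages, vessels and fibroblasts are common sources of chemokines.

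Values are log2 expression, and levels were compared only between tumors for the same probe set, since probe sets differ in how brightly they respond. A gene with several probe sets is represented by the one with the highest mean. A value was called detected when it exceeded the 95th percentile of 86 probe sets for olfactory, vomeronasal and taste receptors on the same array, a limit that lay between 6.71 and 7.21. In bulk tumors a lower value can come from fewer cells of a type or from less RNA per cell, and these cannot be told apart.

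A few properties of the arrays bear on what follows. Of 12 noradrenergic neuroblast markers, 11 were detected in all tumors, against 54.8% of all 18194 genes. After centring each gene on its mean over the tumors, these markers had a mean of -2.38 in Tumor 7, against 0.12 to 0.57 in the other 7 tumors. They did not fall alike in Tumor 7. Ddc measured 7.38 there against a median of 14.17 over the tumors, and Isl1 13.48 against 13.79. Insm1 was highest in Tumor 7, at 12.28, the only 1 of the 12. Tumor 6 stood apart in hepatocyte genes, with a centred mean of 5.51 against -1.02 to -0.53 elsewhere, and it also had the highest mean for adrenal cortex genes, 1.20. In Tumor 1 the 3' and 5' Gapdh control probe sets differed by 5.51, against 0.47 to 1.57 in the other arrays. Skeletal muscle genes had centred means of 1.47 and 0.70 in the ganglion tumors and of -0.55 to -0.15 in the adrenal tumors. Of these genes 6 of 7 had both ganglion tumors above every adrenal tumor, as did 2.31% of all genes tested. The part of these differences in the results that follow was not tested, except where a value without the tumor is given.

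The genes differed in how many tumors they were detected in. Cx3cl1, Cxcr4 and Cx3cr1 were detected in all 8 tumors, as were 61.3% of all genes tested. Ccl6, Ccl8 and Cxcl12 were each detected in 7 tumors. Ackr3, Cxcl2 and Cxcl10 passed the limit in only 2, 1 and 1 tumors, and Ccl2 in none, as did 22.9% of genes tested. These counts rest on the limit, since with the limit raised to the 99th percentile no gene of the 10 was detected in all tumors, and at log2 5 all but Cxcl2 and Ackr3 were.

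**Figure D1:**
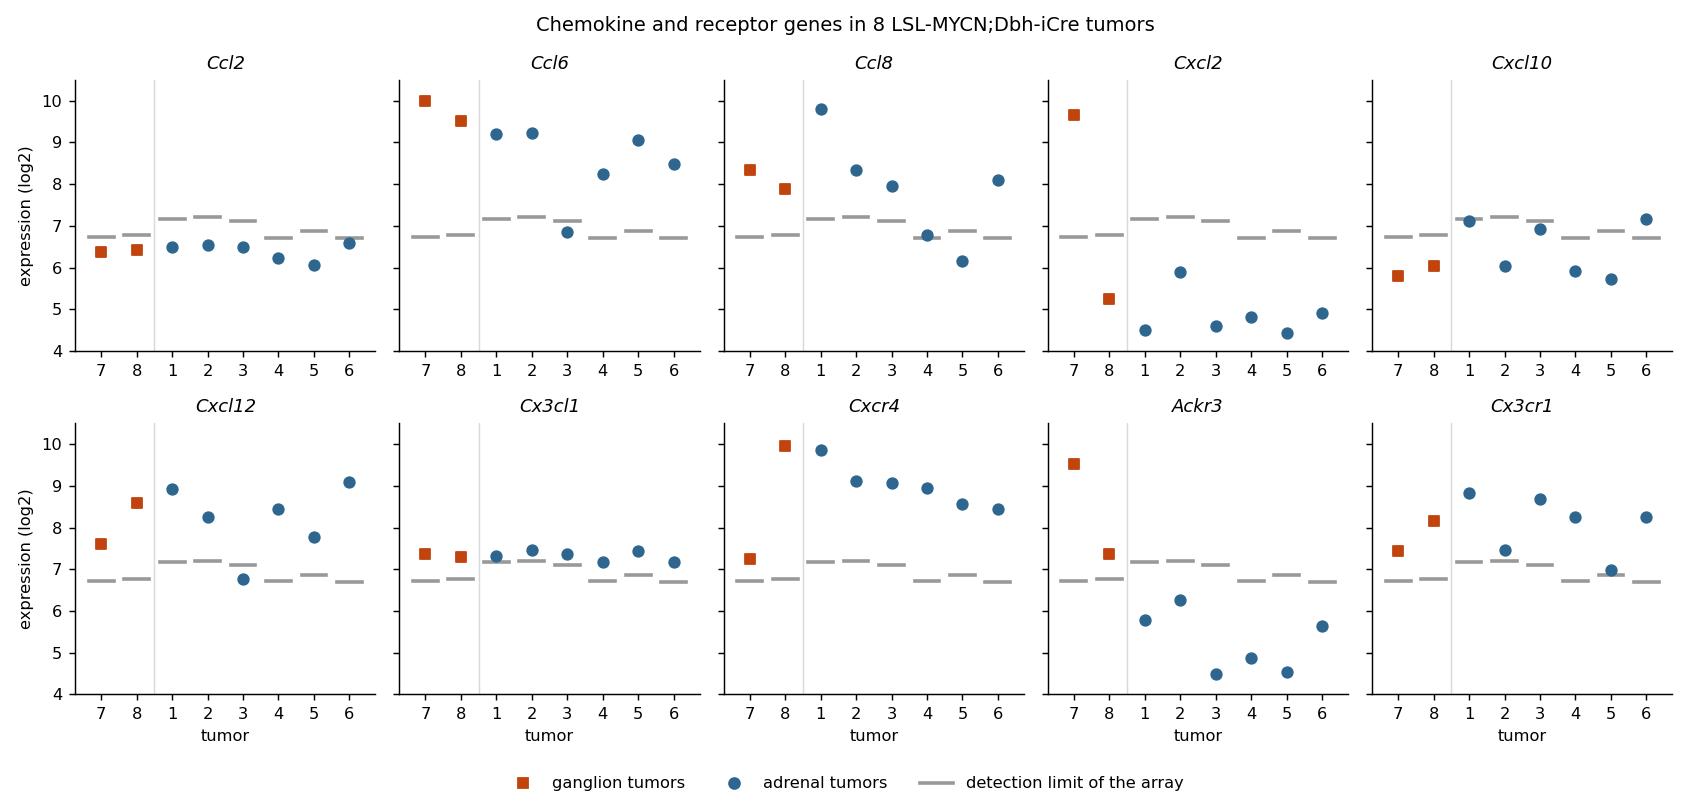
Log2 expression of the 10 genes (vertical axes) in each tumor (horizontal axes), with the ganglion tumors as squares, the adrenal tumors as circles, and the detection limit of each array as a grey line. Cxcl2 is high in Tumor 7 alone, Ackr3 lies over the limit only in Tumors 7 and 8, Cx3cl1 is nearly level, and Cxcr4 is lowest in Tumor 7 and highest in Tumor 8.

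Expression varied strongly between tumors for most of the genes. The SD over the 8 tumors had a median of 0.82 for the 10 genes, against 0.26 for all genes tested, and 8 of the 10 exceeded the 90th percentile of all genes, 0.61. The exceptions were Ccl2 with an SD of 0.18 and Cx3cl1 with 0.10. The spread was widest for Cxcl2 with an SD of 1.75 and Ackr3 with 1.70, and without Tumor 7 these were 0.51 and 1.04. A wide spread was not a trait of the family. The 47 other chemokine and receptor genes measured had a median SD of 0.20, and 30 of them were detected in no tumor. The 10 genes were chosen with earlier results of these data known.

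To compare the sites, limma was fitted to the 16254 genes above log2 5 in at least 2 tumors, with 2 ganglion and 6 adrenal tumors. No gene of the 10 passed the Benjamini-Hochberg threshold of 0.05, which 0.0185% of genes tested did. The skeletal muscle genes Acta1 and Tnnt3 were among those that passed, although Tnnt3 was detected in no tumor. At an unadjusted limma p under 0.05 there were 2 of the 10, Ackr3 and Cxcl2, and 761 of all genes. Exact permutation of the site labels can give no p below 0.036 with these numbers of tumors. It reached that value for Ackr3 alone of the 10 genes, and for 349 of all 16254 genes. Both ganglion tumors lay above every adrenal tumor for Ackr3 and Ccl6, as for 2.31% of genes tested, and both lay below for 0 of the 10, as for 2.1%. The median difference of ganglion minus adrenal was 0.01 for the 10 genes and -0.03 for all genes tested.

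**Figure D2:**
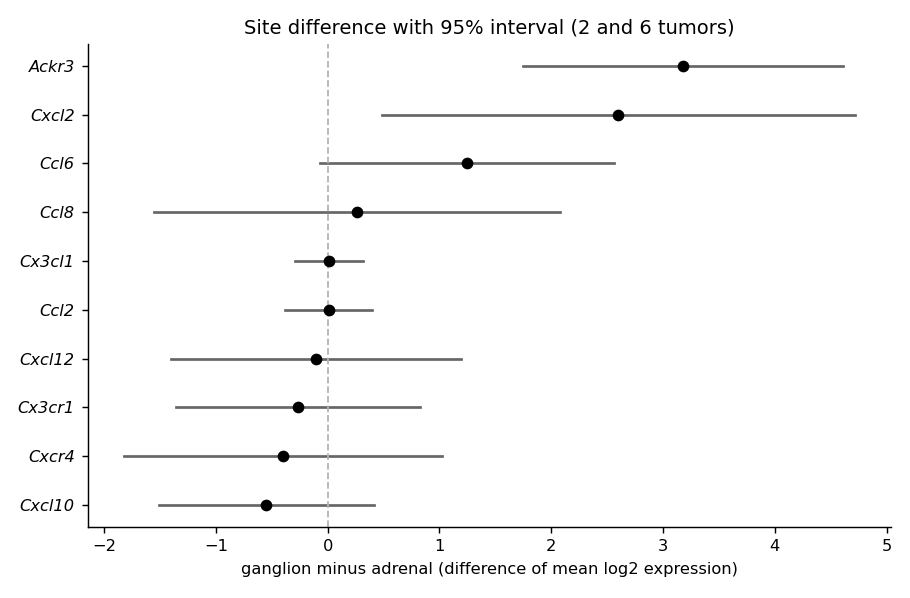
Difference of mean log2 expression, ganglion minus adrenal, for the 10 genes, where points are the limma estimate and lines its 95% interval from 2 ganglion and 6 adrenal tumors. The intervals of Ackr3 and Cxcl2, whose adrenal values were all below the detection limit, lie above 0, and those of the other 8 genes include it.

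Ackr3, an atypical receptor that binds and clears Cxcl12, had the widest difference between sites. Its value was 9.52 in Tumor 7 and 7.37 in Tumor 8, whereas in the adrenal tumors it had a lowest value of 4.48, a median of 5.27 and a highest value of 6.27. Both ganglion tumors were over the detection limit and all 6 adrenal tumors below it, so the groups did not overlap. Since no adrenal value was over the limit, expression was given as at least 2.80-fold higher, from the ganglion mean of 8.45 and the mean adrenal detection limit of 6.96. The measured means were 8.45 and 5.27, with a fitted difference of 3.18 ± 0.63 (SE) that is no bound, a limma p of 0.00076 and an adjusted p of 0.81. With Tumor 8 alone as the ganglion tumor the difference was 2.10 (limma adjusted p = 1), and with Tumor 7 alone it was 4.25 (limma adjusted p = 0.0095, in a fit that called 5.87% of genes). That fit takes the lone tumor to vary like the adrenal ones. The single probe set of Ackr3 is of a design that can match more than 1 transcript.

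Endothelial genes were set beside Ackr3. All 12 genes of an endothelial list, among them the adhesion molecules Pecam1 and Cdh5, had a higher mean in ganglion tumors, although none passed the threshold in limma and 4 were at an unadjusted p under 0.05, as were 761 of all 16254 genes. Pecam1, Cdh5, Emcn and Flt1 had both ganglion tumors above every adrenal one, as did 2.31% of all genes tested. Of these, Pecam1 and Emcn passed the detection limit only in Tumor 8, while Cdh5 and Flt1 each passed it in 6 tumors. In the list of 12, 4 genes were over the limit on every array, against 54.8% of all 18194 genes, and Tie1 was over it on no array. The centred mean of the list was 0.28 and 0.57 in Tumors 7 and 8, against -0.62 to 0.17 in the adrenal tumors. Over the 8 tumors Ackr3 followed this mean in rank with a Spearman's rho of 0.93 (exact permutation, adjusted p = 0.027 over 24 relations), and Pearson's r was 0.75 (exact permutation p = 0.031, adjusted p = 0.24). Without the 2 tumors farthest from the median of the list, r was 0.82, and within the 6 adrenal tumors it was 0.85. Tumor 7 had the highest Ackr3 but only the second highest list mean, and without it r was 0.93 (exact permutation, adjusted p = 0.031). With any other single tumor left out, r was 0.72 to 0.78 and did not pass (exact permutation, adjusted p from 0.25 to 0.39). All adrenal values of Ackr3 in this relation are below the detection limit.

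Cxcl12, the ligand shared by Ackr3 and Cxcr4 and a product of stromal and endothelial cells, measured 7.61 in Tumor 7 and 8.60 in Tumor 8. In the adrenal tumors its lowest value was 6.76, in Tumor 3, its median 8.34 and its highest value 9.10, in Tumor 6. The ganglion tumors lay within the adrenal range, and the difference was -0.10 ± 0.57 (SE, limma adjusted p = 0.99), with an interval of -1.40 to 1.20. Of its other probe sets, 1 correlated with the one kept at r = 0.76 and was detected in 2 tumors, and the other at r = 0.10 and was detected in none. With Cxcr4 its r over tumors was 0.35 and with Ackr3 0.06 (exact permutation, adjusted p = 0.56 and 0.88). No relation of Cxcl12 with the macrophage, endothelial, or fibroblast and pericyte list passed either, with r between 0.36 and 0.41.

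Cxcr4, the signaling receptor of Cxcl12, was detected in every tumor. Its value was 7.25 in Tumor 7 and 9.97 in Tumor 8, the lowest and the highest of all, and in the adrenal tumors the lowest value was 8.45, the median 9.02 and the highest 9.87. Thus the 2 ganglion tumors differed from each other by 2.72, more than the whole adrenal range, and the difference between sites was -0.40 ± 0.63 (SE, limma adjusted p = 0.97). Its direction depended on Tumor 7, without which it was 0.96. Cxcr4 correlated with the mean of 20 macrophage genes at r = 0.83 (exact permutation p = 0.010, adjusted p = 0.12) and rho = 0.81 (adjusted p = 0.17). Without Tumors 5 and 7 r was 0.66, and within the 6 adrenal tumors it was 0.54. The r of Cxcr4 with the noradrenergic neuroblast list was 0.74 (exact permutation, adjusted p = 0.33), and without Tumors 5 and 7 it was -0.05. That relation rested on Tumor 7, in which both were lowest.

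Cx3cl1, or fractalkine, is anchored in the membrane of neurons and endothelial cells and binds Cx3cr1. It measured 7.36 in Tumor 7 and 7.30 in Tumor 8, and from 7.17 to 7.46 in the adrenal tumors with a median of 7.34. The gene was nearly level, with only 3.91% of genes tested having a lower SD, and its values stood between 0.16 and 0.64 over the detection limit. The difference between sites was 0.01 ± 0.13 (SE, limma), with an interval of -0.29 to 0.31. Of its 3 other probe sets, 1 was detected in 4 tumors and the others in none, and their r with the kept one was 0.13, 0.24 and 0.50. With the limit at the 99th percentile it was detected in 6 tumors.

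Cx3cr1, the fractalkine receptor of monocytes, tissue macrophages and microglia, was detected in all tumors by the probe set kept. Its other probe set was detected in none and correlated with the kept one at r = 0.41, with a site difference of 0.13. On the kept probe set Cx3cr1 measured 7.44 in Tumor 7 and 8.17 in Tumor 8. The adrenal tumors had a lowest value of 6.97, in Tumor 5, a median of 8.25 and a highest value of 8.83, in Tumor 1. The groups overlapped, with a difference of -0.27 ± 0.48 (SE, limma adjusted p = 0.97). Like Cxcr4 it correlated positively with the macrophage list, with r = 0.74 (exact permutation p = 0.041, adjusted p = 0.24), which became 0.26 without Tumors 5 and 7. With its ligand Cx3cl1 the r was -0.55 (exact permutation, adjusted p = 0.42), and with the mean of all Cx3cl1 and Cx3cr1 probe sets it was 0.29. Of the 20 macrophage genes themselves, 16 were detected in all tumors, against 54.8% of all 18194 genes, although Itgam was detected in none.

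Cxcl2, a ligand of Cxcr2 that attracts neutrophils, was detected in 1 tumor. It measured 9.67 in Tumor 7 and 5.26 in Tumor 8, against a lowest value of 4.42, a median of 4.72 and a highest value of 5.89, in Tumor 2, among the adrenal tumors. Tumor 8 lay inside the adrenal range and Tumor 7 far outside it, at least 6.52-fold over the adrenal tumors by their mean detection limit of 6.96, since all 6 were below it. The fitted difference between sites, which sets 1 detected value against undetected ones, was 2.60 ± 0.93 (SE), with limma's p of 0.021 and an adjusted p of 0.90, and the exact permutation p was 0.071. Tumor 7 decided this value. The difference was 0.39 without Tumor 7, and 4.81 with Tumor 7 as the only ganglion tumor (limma adjusted p = 0.0018).

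Cxcl3 and Cxcl1, related ligands of Cxcr2, were measured on the same arrays. Cxcl3 had 8.35 in Tumor 7 and 3.53 in Tumor 8, against 3.40 to 3.94 in the adrenal tumors, which is the pattern of Cxcl2. Cxcl1 had 8.16 in Tumor 7 and 8.54 in Tumor 8, against 8.19 to 8.62 in the adrenal tumors, so Tumor 7 was the lowest there. The probe set of Cxcl1 is of a design that can match more than 1 transcript. The neutrophil genes S100a8 and S100a9 were high in more tumors than Cxcl2. S100a8 measured 9.28 and 7.37 in Tumors 7 and 8, and in the adrenal tumors 8.83 in Tumor 1 and 5.00 to 6.18 in the others. Of 7 neutrophil genes measured, 1 was detected in all tumors and 3, Mpo, Elane and Camp, in none, against 54.8% and 30.8% of all 18194 genes. A list of 12 genes induced by NF-kappaB had its highest centred means in Tumors 2 and 1, 0.34 and 0.25, and 0.11 in Tumor 7, and its r with Cxcl2 was 0.34 (exact permutation, adjusted p = 0.56). This r was 0.55 without Tumor 7 (adjusted p = 0.36) and 0.78 without Tumors 1 and 2, the farthest from the median of the list.

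**Figure D3:**
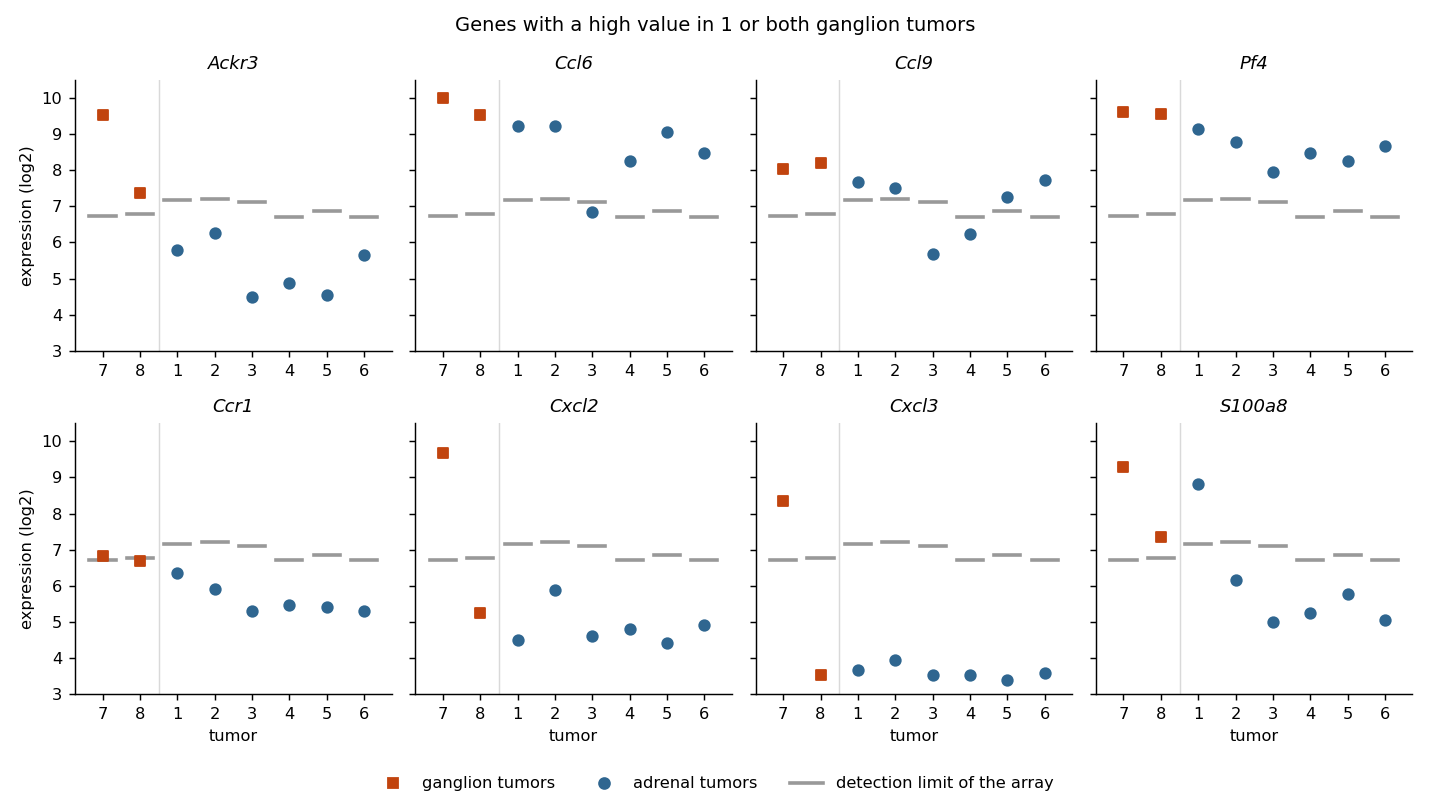
Log2 expression (vertical axes) of Ackr3, Ccl6, Ccl9, Pf4, Ccr1, Cxcl2, Cxcl3 and S100a8 in each tumor (horizontal axes), with ganglion tumors as squares, adrenal tumors as circles, and grey lines for the detection limit. Cxcl2 and Cxcl3 share a single high tumor, Tumor 7, whereas S100a8 is also high in the adrenal Tumor 1.

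The promoters of Cxcl2 and Cxcl3 are shown because the genes lie on the same chromosome and were high in the same tumor. Each line is the 250 bases before the RefSeq start in assembly GRCm38.p6, 5' to 3', Cxcl2 at chr5:90903649-90903898 and Cxcl3 at chr5:90785851-90786100, both on the plus strand, with matches to the kappaB letters GGNNTTTCC in capitals.
Cxcl2: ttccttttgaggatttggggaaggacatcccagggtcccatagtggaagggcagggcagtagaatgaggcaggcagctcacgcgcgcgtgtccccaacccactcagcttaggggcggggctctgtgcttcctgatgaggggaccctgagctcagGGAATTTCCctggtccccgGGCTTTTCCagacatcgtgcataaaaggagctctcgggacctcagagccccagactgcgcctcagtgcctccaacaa
Cxcl3: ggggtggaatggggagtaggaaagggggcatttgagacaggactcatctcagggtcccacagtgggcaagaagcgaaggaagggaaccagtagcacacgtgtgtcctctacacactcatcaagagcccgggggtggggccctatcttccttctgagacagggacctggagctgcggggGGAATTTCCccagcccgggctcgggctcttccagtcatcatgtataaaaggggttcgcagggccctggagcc
The Cxcl2 window held the letters at 96 to 88 and at 77 to 69 bases before the start, and the Cxcl3 window at 72 to 64. Both strands were searched, and the letters occur in 4.84% of 27025 RefSeq promoter windows of the same length. Of the 9 genes of the 10 that have a window in the table, Cxcl2 and Cxcl10 had a match. A match describes the sequence and does not show that a factor was bound.

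Cxcl10, an interferon-induced ligand of Cxcr3 that attracts T cells, was detected in Tumor 6 alone. It measured 5.81 in Tumor 7 and 6.05 in Tumor 8, and in the adrenal tumors had a lowest value of 5.72, a median of 6.48 and a highest value of 7.16. Tumors 1, 3 and 6, all adrenal, had 6.92 to 7.16, and the other 5 tumors 5.72 to 6.05, with none between. The difference between sites was -0.55 ± 0.42 (SE, limma adjusted p = 0.91). Of 9 T cell and natural killer cell genes, 0 passed the detection limit in every tumor, against 54.8% of all 18194 genes, and 6 passed it in none, against 30.8%, while Cd4 was detected in 7 tumors, Cd8a in 6 and Cd3e in 5.

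Tumors 1, 3 and 6 were also the highest for a list of 15 measured interferon-response genes that holds no chemokine, with centred means of 0.69, 0.09 and 0.50, against -0.42 to -0.04 in the others. Over the 8 tumors r between Cxcl10 and this mean was 0.93 (exact permutation p = 0.00045, adjusted p = 0.011) and rho 0.93 (adjusted p = 0.027). It was the only one of 24 relations with an adjusted p under 0.05 for both measures. Without Tumors 1 and 6 r was 0.85, and within the adrenal tumors 0.93. Cxcl10 fell into a set of 3 and a set of 5 tumors, and since correlations were computed only over at least 6 tumors, none is given within a set. With 7 tumors the adjusted p ranged from 0.019 to 0.086, the highest without Tumor 3, where r was 0.97. All Cxcl10 values but 1 were below the detection limit, and the list mean also held values below it. Of the 15 list genes, 4 were over the limit on every array, against 54.8% of all 18194 genes. Another 5, Ifit1, Ifit3, Oasl2, Mx1 and Usp18, were over it on no array, against 30.8%.

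**Figure D4:**
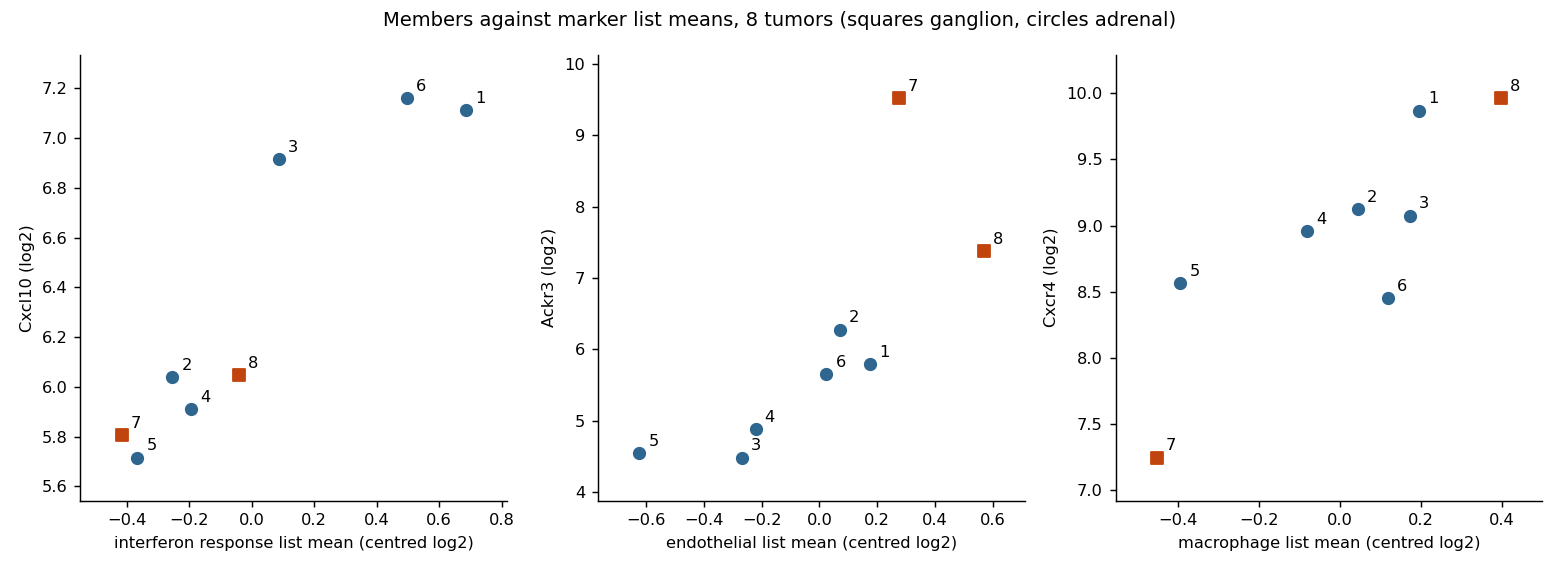
Log2 expression of Cxcl10, Ackr3 and Cxcr4 (vertical axes) against the centred log2 mean of the interferon response, endothelial and macrophage lists (horizontal axes), with each tumor numbered, ganglion tumors as squares and adrenal tumors as circles. Cxcl10 separates Tumors 1, 3 and 6 from the other 5, Ackr3 is highest in Tumors 7 and 8, and Cxcr4 is lowest in Tumor 7 and highest in Tumor 8.

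The promoter of Cxcl10 is shown beside this relation. The line is the 250 bases before the RefSeq start in GRCm38.p6, chr5:92348890-92349139 on the minus strand, 5' to 3', with matches to the letters GAAANNGAA of the interferon-stimulated response element and to the kappaB letters in capitals.
Cxcl10: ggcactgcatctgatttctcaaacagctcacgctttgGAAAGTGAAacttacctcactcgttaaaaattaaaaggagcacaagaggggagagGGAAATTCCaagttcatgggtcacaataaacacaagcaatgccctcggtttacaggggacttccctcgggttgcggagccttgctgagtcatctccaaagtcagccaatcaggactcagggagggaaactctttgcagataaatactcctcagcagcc
The interferon match lay 213 to 205 bases before the start, and the kappaB match 158 to 150, read on the opposite strand of the gene. On either strand the interferon letters occur in 7.16% of the 27025 promoter windows, and in no other of the 9 windows of the 10 genes.

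Ccl6, a rodent CC ligand made by macrophages and other myeloid cells, had the other difference without overlap. It measured 10.001 in Tumor 7 and 9.52 in Tumor 8, and in the adrenal tumors had a lowest value of 6.86, in Tumor 3, a median of 8.76 and a highest value of 9.23. The lower ganglion tumor lay little above the highest adrenal ones. The difference was 1.25 ± 0.58 (SE), with an interval of -0.07 to 2.56 and a limma adjusted p of 0.90, and the exact permutation p was 0.11. The second probe set, whose r with the first was 0.92, had 7.82 and 7.64 in Tumors 7 and 8 and its highest value, 7.97, in the adrenal Tumor 1, so the groups overlapped on it. With the macrophage list r was -0.29 (exact permutation, adjusted p = 0.56).

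Ccl8, in the mouse a ligand of Ccr8, measured 8.33 in Tumor 7 and 7.89 in Tumor 8. In the adrenal tumors the lowest value was 6.16, in Tumor 5, the median 8.02 and the highest value 9.80, in Tumor 1. The ganglion tumors were in the middle of the adrenal range, with a difference of 0.26 ± 0.80 (SE, limma adjusted p = 0.98). With the macrophage list r was 0.44 (exact permutation, adjusted p = 0.54). Tumor 1, the highest, was also the tumor with the largest Gapdh difference and the highest mean of fibroblast and pericyte genes, 0.89. Tumor 5, the lowest, had the lowest mean of those genes, -1.23. Tumor 8 had their next highest mean, 0.54, but a Ccl8 value below the adrenal median. The relation of Ccl8 with the fibroblast and pericyte list was not tested.

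Ccl2, which recruits monocytes through Ccr2, was not detected in any tumor. Its values were 6.38 and 6.42 in Tumors 7 and 8 and 6.05 to 6.58 in the adrenal tumors, of which the nearest was 0.12 below its limit. With such values, differences in Ccl2 were not detectable, and the difference between sites was 0.01 ± 0.17 (SE, limma adjusted p = 1.00).

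The rest of the family gave a background for these 10 genes. Of 52 other ligands and receptors listed, 47 were measured. Among these, 7 were detected in all tumors, against 54.8% of all 18194 genes, 10 in some, and 30 in none, against 30.8%. None of the 38 tested passed the limma threshold (5 at an unadjusted p under 0.05, lowest adjusted p = 0.90), where 761 of all 16254 genes were at an unadjusted p under 0.05. The median difference between sites was -0.0001, and 19 had the higher mean in ganglion tumors. Both ganglion tumors lay above every adrenal tumor for 4 of the 38, Ccl9, Pf4, Ccr1 and Ccr9, against 2.31% of all genes tested, and below for 0, against 2.1%.

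Ccl9, a CC ligand of the same mouse cluster as Ccl6, measured 8.02 and 8.19 in Tumors 7 and 8, against 5.67 to 7.73 in the adrenal tumors. The platelet and macrophage chemokine Pf4 measured 9.61 and 9.56, against 7.94 to 9.14 in the adrenal tumors, a difference of 1.04 ± 0.28 (SE). Ccr1, a receptor for several CC ligands, had 6.82 and 6.70, against 5.30 to 6.37 in the adrenal tumors, and passed the detection limit in Tumor 7 only. Ccr9, a receptor of gut-homing lymphocytes that was named after its values were seen, was detected in no tumor.

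Among ligands and receptors detected in all tumors, several were steady. Ccl27a averaged 10.02 ± 0.31, Cxcl1 8.35 ± 0.16, Cxcl16 8.20 ± 0.21, Ccl4 7.30 ± 0.16 and Ccl24 7.11 ± 0.20 (SD, n = 8). Ccl4 and Ccl24 stood on average only 0.39 and 0.20 over the detection limit. Signals so near array background do not show steady expression of these 2 genes. The probe sets of Ccl27a and Cxcl1 are of a design that can match more than 1 transcript. Ackr1, an atypical receptor of red cells and venular endothelium, averaged 9.36 ± 0.56 (SD, n = 8) and was highest in Tumor 5, at 10.38. Others varied more, with Ccl25 detected in Tumors 7 and 2 at 8.15 and 7.58, and the T cell attractant Ccl5 detected in 4 adrenal tumors with its highest value, 7.94, in Tumor 1, while Ccl11 passed its limit only in Tumor 7 at 6.90 and Cxcl13 in 1 tumor. Ccrl2 and Ccr10 were each detected in 3 tumors, and Cxcl17 and Ackr4 in none.

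Genes for signaling and processing were detected more widely. The arrays held 11 of the 12 listed, and 9 exceeded the detection limit on every array, against 54.8% of all 18194 genes. In limma, 0 of the 11 had an adjusted p under 0.05, against 0.0185% of genes tested. The count at an unadjusted limma p under 0.05 was also 0, against 761 of all 16254 genes. With only 11 genes, these counts of 0 do not set the list apart from all genes. Mif, a cytokine that also binds Cxcr4, averaged 13.72 ± 0.24, Adam10, a protease that sheds fractalkine, 11.49 ± 0.20, the G-protein subunit Gnai2 11.42 ± 0.31, the Mif receptor Cd74 7.84 ± 0.51 and the arrestin Arrb1 9.17 ± 0.49 (SD, n = 8). Grk3, a kinase that desensitizes receptors, had 9.96 in Tumor 7 and 11.59 in Tumor 8, against 11.27 to 11.95 in the adrenal tumors. Rgs1, which dampens G-protein signaling in leukocytes, was highest in the adrenal Tumor 2, at 9.91, and 6.61 to 8.35 in the others.

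The genes whose pattern over the 8 tumors was most like each of the 10 were sought among 4375 genes detected in all tumors with an SD of at least 0.3, by Pearson's r and as a description only. For Cxcl10 the first was the class I histocompatibility gene H2-K1 (r = 0.92), followed by Cib1 and Sash1. For Ackr3 they were Wwc2 (r = 0.98), Akap2 and Idnk, and for Cxcl2 Mcu (r = 0.99), Hpcal1 and Prkg2. Cx3cr1 was most like Gmnn (r = 0.99), Dscc1 and Zbtb8a, and Cxcr4 most like Zbtb5 (r = 0.95), Rec114 and 2010320M18Rik. Ccl8 was followed by Tent5c (r = 0.96), Pcolce and Cnot11, Ccl6 by Ppp1r13b (r = 0.94), Lgals3 and 2900026A02Rik, and Cxcl12 by Sh3kbp1 (r = 0.88), Lamp2 and Tiparp. Patterns of Cx3cl1 were nearest to Rgs9 (r = 0.94), Minar2 and N4bp3, and of Ccl2 to Ifitm3 (r = 0.88), Notch1 and H1f2. Each was picked as the highest of 4375 values of r over the same 8 arrays, and none was tested.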

How the data were processed

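RNA of 8 tumors was measured on 1 array each. The authors deposited log2 expression values per probe set. RMA and Partek 6.6 are named in the submitters' notes on processing and gcRMA in the study's methods, and which made these values is unsettled. Background correction and normalization between arrays are therefore already in the values, which ran from 3.00 to 15.27, and nothing was added. No 2 arrays held identical values, and r between arrays was 0.948 to 0.987.

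The 10 genes, the gene lists and the tests were chosen with earlier results of these data known. Genes were named from the platform annotation, with symbols updated through Entrez identifiers (34754 matched); 932 probe sets with several genes and 9211 unnamed ones were left out. Each gene took its brightest probe set by mean, as in the study's methods. Site was tested with limma 3.58.1 in R 4.3.3 (lmFit, eBayes, Benjamini-Hochberg over 16254 genes, checked on simulated data), ganglion minus adrenal, and by exact two-sided permutation over 28 splits. The 24 relations used exact two-sided permutation over 40320 pairings with Benjamini-Hochberg adjustment. List means were taken over genes centred on their mean over the tumors. Beyond the 10 genes, those named were, per family list, up to 4 with the highest mean over the limit and up to 4 with the highest SD, up to 3 markers with the highest mean per list, and the 3 most similar patterns per gene. Other markers named in the text, and Ccr9, were chosen after their values were seen. Statistics and plots used Python 3.11.15, numpy 2.4.6, pandas 2.3.3, scipy 1.17.1 and matplotlib 3.10.9. The number of arrays, 8, limits the precision. Alternatives covered normalization, the filter, the probe set, the test, the detection limit and tumors left out.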

Additional observations from a re-analysis of the deposited data

Results flagged for a closer look

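The values of each of the 10 genes were examined for a tumor far from the others by Dixon's test, among the 6 adrenal tumors and among all 8 tumors, which made 20 comparisons. Chance flags about 1 in 20 such groups, and 2 were flagged, both for Cxcl2. In Tumor 7 its gap to the nearest tumor was 0.719 of the range of the 8 tumors (critical value 0.526), with 9.67 against 4.42 to 5.89 in the others. Among the 6 adrenal tumors, Tumor 2 was apart by 0.669 of their range (critical value 0.625), with 5.89, which is below the detection limit of its array.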

How the results depend on the processing

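Among the chemokine and receptor genes, only the omission of Tumor 8 gave calls between the sites, in a fit that called 951 of all genes (5.87%). With each tumor left out in turn, 0 to 2 of the 10 genes passed the limma threshold, the 2 being Ackr3 and Cxcl2, and 0 to 3 of the other family genes; every other alternative gave 0 in both sets, where the exact permutation of all 16254 genes gave 0 after adjustment and 349 at an unadjusted p under 0.05. The genes detected in all tumors numbered 0 at the 99th percentile and 8 at log2 5, and those detected in none 0 at log2 5. The genes above the 90th percentile of SD numbered 5 to 8, and relations past the threshold 0 to 2, with each tumor left out; without Tumors 6 and 7 together there were 0.

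Small differences between sites changed sign. With each tumor left out they ranged from -0.061 to 0.045 for Ccl2, -0.077 to 0.65 for Ccl8, -0.60 to 0.39 for Cxcl12, -0.023 to 0.042 for Cx3cl1, -1.76 to 0.96 for Cxcr4 and -0.63 to 0.096 for Cx3cr1. Median centring gave -0.0045 for Ccl2 and -0.0025 for Cx3cl1, and for Cx3cl1 quantile normalization gave -0.0059 and the mean of its probe sets -0.038. Without Tumors 6 and 7 the difference was 0.57 for Cxcl12, -0.050 for Cx3cl1, 0.85 for Cxcr4 and 0.13 for Cx3cr1. Ackr3, Ccl6 and Cxcl2 were higher in ganglion tumors, and Cxcl10 lower, under every alternative that gave a value; Ccl2, Cxcl2 and Cxcl10 gave none under the receptor-based filter.

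Correlations that changed sign with a tumor left out ranged from -0.56 to 0.019 (Ccl6 with macrophage genes), -0.82 to 0.32 (Cxcl2), -0.51 to 0.69 (Ackr3), -0.36 to 0.57 (Cxcl12 with Ackr3), -0.68 to 0.65 (Cxcr4 with Ackr3), -0.020 to 0.61 (Ackr3 with fibroblast genes), -0.32 to 0.81 (Cxcr4 with noradrenergic genes) and -0.28 to 0.019 (Cx3cl1 with noradrenergic genes). Without Tumors 6 and 7, r was 0.027, 0.32 and 0.69 for Ccl6, Cxcl2 and Ackr3 with macrophage genes, 0.78 for Cxcr4 with Ackr3 and -0.41 for Cxcr4 with noradrenergic genes. With the mean of probe sets, r was 0.057 for Cx3cl1 with macrophage genes, -0.044 for Cxcl12 with Ackr3 and 0.29 for Cx3cl1 with Cx3cr1. The cause of these changes was not tested. No paired analysis was possible because it is not given which tumors, if any, came from the same mouse. Signals at or below array background limit Cxcl2, Ackr3, Cxcl10 and Ccl2, and signals near it Cx3cl1.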
